A study of Mus musculus with 6 samples.

Results

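The amino acid and peptide transporter genes of 8 solute carrier families (Slc1, Slc3, Slc6, Slc7, Slc15, Slc36, Slc38 and Slc43) were examined in the mouse uterus after oil or progesterone. Members were all genes whose symbol, as the platform annotation gives it, consists of 1 of these family names, the letter a and a number. The annotation held 126 such probe sets for 63 genes, of 18193 genes measured. Each gene was read from its probe set with the highest mean over the 6 arrays. The families held 18 genes (Slc6), 15 (Slc7), 9 (Slc38), 7 (Slc1), 5 (Slc15), 4 (Slc36), 3 (Slc43) and 2 (Slc3).

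The arrays were made from total RNA of uterine horns of ovariectomized 8-week-old females of a mixed background. All of them, controls included, were GATA2 f/f, by convention a floxed allele on both chromosomes, with no recombinase named in the labels. The Oil group (3 arrays) was given oil and the P4 group (3 arrays) was given progesterone, for which P4 is the usual short form. No dose or time after treatment is given in the labels, nor is it said that each array is a different animal. The p-values therefore reflect array-to-array spread in this set, and that spread may be technical.

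Cells take up amino acids through carriers that use the sodium gradient, exchange 1 amino acid for another, or let them pass down their gradient. Slc7 light chains are carried to the membrane by an Slc3 heavy chain, while the Slc7 genes of the cationic amino acid type work alone. Slc15 carriers move di- and tripeptides with protons. Slc6 holds carriers for neutral and cationic amino acids beside those for neurotransmitters, taurine and creatine. Several Slc36 and Slc38 proteins sit on lysosomes, where amino acids are sensed by the growth kinase complex mTORC1. In the uterus, secretion of amino acids and uptake by the epithelium bear on the make-up of the luminal fluid.

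Intensities are linear probe set values as deposited, a level on the scale of 1 probe set that cannot be set against another gene's. Differences are P4 minus Oil in log2(intensity + 16), fitted by limma over all genes, and a gene was called at a Benjamini-Hochberg adjusted p under 0.05. Array medians ran from 117.3 to 122.9. Of the markers of epithelium, stroma and smooth muscle, 0 of 9, 0 of 8 and 0 of 7 measured were among the dimmest 30% of genes, a rank of probe set signals that only roughly reflects RNA levels. Granulocyte markers differed most between arrays of 1 group, from 1052 to 11832 summed intensity after oil and from 988 to 16286 after P4, with 0 of 9 called.

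After P4, 2 of the 63 genes rose and 6 fell. Over all genes 6.08% were called higher and 6.94% lower, so the share of members called (8 of 63) lay near the 13.0% called in either direction among all genes. The genes that rose were Slc6a14, a sodium- and chloride-coupled carrier of neutral and cationic amino acids, and Slc7a1, the main carrier of arginine and lysine in many cells. Those that fell were Slc15a2, a high-affinity peptide carrier, Slc6a6, the taurine carrier, Slc43a1, a facilitative carrier of large neutral amino acids, Slc7a7, a light chain that exchanges cationic for neutral amino acids, Slc38a6, whose substrates are less settled, and Slc38a9, the lysosomal carrier that senses arginine. The groups did not overlap for 17 of the 63 genes, against 31.8% of all genes. Epithelial markers had a median log2 difference of -0.34. Of these, 3 of 9 (Krt18, Krt19 and Elf3) were lower on every P4 array at an unadjusted p under 0.05 (limma adjusted p 0.0673, 0.0721 and 0.078). Krt7, Cldn7 and Cldn4 were higher by sign (0.14, 0.26 and 0.31) and were not called. Endothelial markers summed to 5833 to 6803 after oil and to 5545 to 5735 after P4, with 1 of 7 called lower and 0 higher. Adipocyte markers, 0 of 5 called, had a median of -0.49. Among them Fabp4 (-1.62), Adipoq (-1.38) and Retn (-0.49) were lower at an unadjusted limma p under 0.05. Their groups overlapped (limma adjusted p 0.0834, 0.0672 and 0.122). The other adipocyte markers were Lep (-0.10) and Cidec (0.05). The part of these cell types in the members' decreases was not tested. Of the 24 members in the brighter 50% of genes, 2 rose and 5 fell, where 10.0% and 10.6% of all genes that bright were called. The median log2 difference was -0.02 over the members and -0.01 over all genes. In bulk tissue, fewer cells of a type and less RNA per cell cannot be told apart.

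Called genes were spread over 5 of the 8 families, with calls in both directions in Slc6 and Slc7 only. In Slc6 and in Slc7, 1 gene rose and 1 fell. In Slc38, 2 fell and 0 rose, and Slc15 and Slc43 each had 1 that fell. No member of Slc1, Slc3 or Slc36 was called, while 1 of 7, 0 of 2 and 1 of 4 had groups without overlap. Median log2 differences of the families ran from -0.19 in Slc43 to 0.01 in Slc1. With the replicate number as a block, 6 members were called higher and 9 lower, where 9.29% and 11.6% of all genes were called. All 8 members called without the block were among these.

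**Figure D1:**
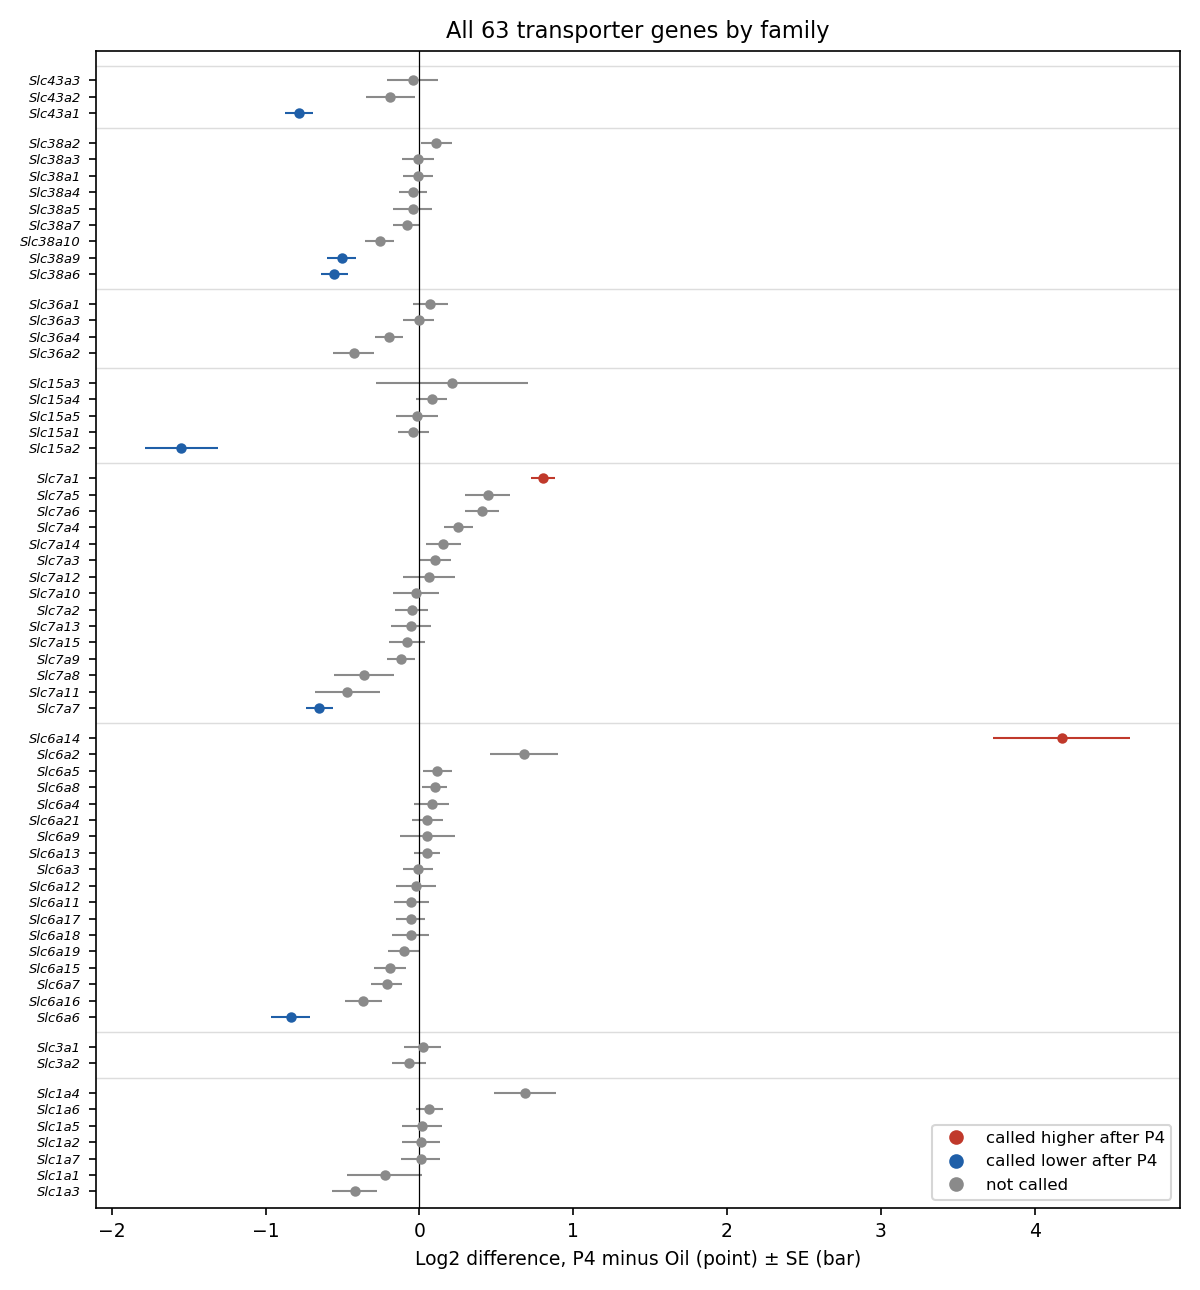
Log2 difference (P4 minus Oil, horizontal axis) for each of the 63 transporter genes, grouped by family, with the point at the estimate and the bar at ± SE. Slc6a14 stands alone at 4.18, Slc15a2 lies lowest at -1.55, and 55 genes in grey were not called.

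Promoter sequence from RefSeq (GRCm38.p6) is shown for the members with the largest changes in each direction and for Slc7a1, because the series title names the progesterone receptor and GATA2. Each window runs from 250 bases before to 50 bases after the annotated start and is written 5′ to 3′ on the gene's strand. Capitals mark matches on either strand to the half-site bound by the progesterone receptor (TGTTCT). They also mark a GATA site (AGATAA). The Slc6a14 window is chrX:21714650-21714949 (plus strand), that of Slc15a2 is chr16:36784913-36785212 (minus strand), and those of Slc7a1, which has 2 annotated starts, are chr5:148399855-148400154 and chr5:148392766-148393065 (minus strand).
Slc6a14: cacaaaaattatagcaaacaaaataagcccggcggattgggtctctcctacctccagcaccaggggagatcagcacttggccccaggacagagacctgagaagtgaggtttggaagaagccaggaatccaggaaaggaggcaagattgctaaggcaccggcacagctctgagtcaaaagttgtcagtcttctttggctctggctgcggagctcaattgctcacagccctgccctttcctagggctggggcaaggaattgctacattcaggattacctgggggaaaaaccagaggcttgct
Slc7a1 first start: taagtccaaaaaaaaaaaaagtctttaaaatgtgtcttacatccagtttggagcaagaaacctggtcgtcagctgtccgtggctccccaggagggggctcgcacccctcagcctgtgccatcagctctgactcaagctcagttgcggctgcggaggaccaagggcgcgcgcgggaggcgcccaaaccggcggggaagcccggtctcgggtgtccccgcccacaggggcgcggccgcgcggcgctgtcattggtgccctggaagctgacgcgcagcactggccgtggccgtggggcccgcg
Slc7a1 second start: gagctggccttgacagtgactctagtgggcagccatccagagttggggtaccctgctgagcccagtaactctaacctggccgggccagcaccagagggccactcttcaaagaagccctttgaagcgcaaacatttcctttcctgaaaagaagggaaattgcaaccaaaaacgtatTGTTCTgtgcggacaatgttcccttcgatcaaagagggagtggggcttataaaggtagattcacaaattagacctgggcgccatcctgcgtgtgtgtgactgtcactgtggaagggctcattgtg
Slc15a2: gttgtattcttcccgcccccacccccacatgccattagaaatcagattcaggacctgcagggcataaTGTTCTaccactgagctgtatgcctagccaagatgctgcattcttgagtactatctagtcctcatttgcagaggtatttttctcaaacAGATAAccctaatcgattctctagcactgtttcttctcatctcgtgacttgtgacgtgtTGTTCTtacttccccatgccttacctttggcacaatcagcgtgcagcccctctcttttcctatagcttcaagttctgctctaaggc

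The Slc15a2 window held 2 matches to TGTTCT, at positions -183 and -36 from the start, and 1 to AGATAA at position -95. In the second Slc7a1 window 1 TGTTCT lay at position -75, and the Slc6a14 and first Slc7a1 windows held none of these letters. Over 32851 windows of the same length, 19.0% held TGTTCT and 11.2% held AGATAA, so such matches are common. The palindrome core ACANNNTGT was in 6.85% of windows and in none of the 4 printed. TGATGNAA, the element read by the amino acid response factor ATF4, was in 3.97% of all windows. Among the called members with a window it was found in Slc7a7 alone, in the windows of 2 of its starts. A TGTTCT can overlap the end of the palindrome core, and each motif was counted on its own. RefSeq windows were matched by gene ID for 45 of the 63 members, 7 of the 8 called among them.

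Slc6a14 (probe set 1420504_at) had intensities of 20.7, 24.1 and 104 after oil and of 1485, 819 and 815 after P4. All P4 arrays lay far above all oil arrays, and oil replicate 3 stood above the other two oil arrays. The log2 difference was 4.18 ± 0.45 (limma adjusted p 0.00169), against group means of 49.5 ± 47.1 and 1039 ± 386 (SD, n = 3). Its other probe set, read in a fit over all 34945 probe sets with 1 symbol, gave 2.66 ± 0.19 (limma adjusted p 0.000345), from 31.3 ± 11.2 after oil to 282.5 ± 61 after P4 (SD, n = 3). Since the oil values are low, the size rests on the pseudocount, with 4.70 at a pseudocount of 1 and 3.50 at 50. Epithelial markers, 0 of 9 called, summed to 15240 to 18251 after oil and to 9886 to 17069 after P4, and their part in the result was not tested.

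Slc7a1 (1454991_at) had the smallest standard error of the log2 difference among the members. Its arrays gave 854, 751 and 818 after oil against 1412, 1432 and 1416 after P4. The P4 arrays were close together (SD 10.9) and well above every oil array. The log2 difference was 0.80 ± 0.08, a 1.75-fold higher level on that scale (limma adjusted p 0.00107). A second probe set gave 0.94 ± 0.10 and the remaining, dim one 0.10 ± 0.12 without a call. Of the other carriers of the cationic type, Slc7a2 had 940 ± 79.2 after oil and 909 ± 99.4 after P4, with a 95% interval of the log2 difference from -0.30 to 0.20. The remaining one, Slc7a3, was among the dimmest 30% of genes (0.10 ± 0.10).

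Slc15a2 (1417600_at), which retrieves di- and tripeptides at low concentration, had the largest decrease. The oil arrays gave 3268, 2097 and 1622 and the P4 arrays 659, 722 and 896. Groups did not overlap, and the oil arrays were more spread than the P4 arrays. The log2 difference was -1.55 ± 0.24 (limma adjusted p 0.00637), a 2.92-fold lower level. Both other probe sets were also called lower, at -1.13 ± 0.19 and -1.03 ± 0.21. The other peptide carriers were not called. Slc15a4, of lysosomal membranes, had 231 ± 4.96 and 246 ± 28.1 (log2 difference 0.08 ± 0.10), and Slc15a1, the intestinal peptide carrier, was among the dimmest 30% of genes (-0.04 ± 0.10).

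Slc15a3, a lysosomal peptide and histidine carrier of immune cells, varied more within each group than between the groups. It had 35.2, 51.5 and 135 after oil and 38.1, 68.4 and 162 after P4. The summed intensity of 7 macrophage markers, 0 of them called, was 1699, 2997 and 4803 after oil and 1501, 4376 and 5326 after P4. Both were lowest on replicate 1 and highest on replicate 3 in each group, and the part of macrophage RNA in the Slc15a3 values was not tested. Its log2 difference of 0.21 ± 0.50 was not called (limma adjusted p 0.859).

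Slc6a6 (1437149_at) carries taurine, an osmolyte that is abundant in reproductive fluids. It had 4994, 5973 and 4324 after oil and 2729, 2598 and 3167 after P4. The highest P4 array lay below the lowest oil array. The log2 difference was -0.84 ± 0.13 (limma adjusted p 0.00619), and a second probe set gave -0.97 ± 0.18, also called. Its 2 further probe sets gave -0.04 ± 0.09 and -0.15 ± 0.10 without a call. The creatine carrier Slc6a8, of the same substrate class, had 811 ± 44.5 and 869 ± 40 and an interval of the log2 difference from -0.09 to 0.28.

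Slc43a1 (1453255_at) lets large neutral amino acids such as leucine pass without a coupled ion. Oil arrays gave 235, 269 and 225, and P4 arrays gave 131, 136 and 136. The P4 arrays were close together and all below the oil arrays (log2 difference -0.78 ± 0.09, limma adjusted p 0.00252). It has 1 probe set. Its relative Slc43a2 had 171 ± 37.8 and 146 ± 20.4 with overlapping groups (-0.19 ± 0.16, limma adjusted p 0.535), and Slc43a3, a nucleobase carrier, had 292 ± 41.9 and 286 ± 64 (-0.04 ± 0.17).

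Slc7a7 (1417392_a_at), which releases arginine and lysine from cells in exchange for neutral amino acids and sodium, had 379, 370 and 422 after oil and 232, 239 and 256 after P4. No arrays overlapped, and the difference was -0.65 ± 0.09 (limma adjusted p 0.00403). A second probe set did not show it (212 ± 12.4 and 212 ± 16.7, -0.01 ± 0.10). Macrophages are known to express Slc7a7. The macrophage marker sums given above overlapped between the groups, and their part in the Slc7a7 values was not tested.

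**Figure D2:**
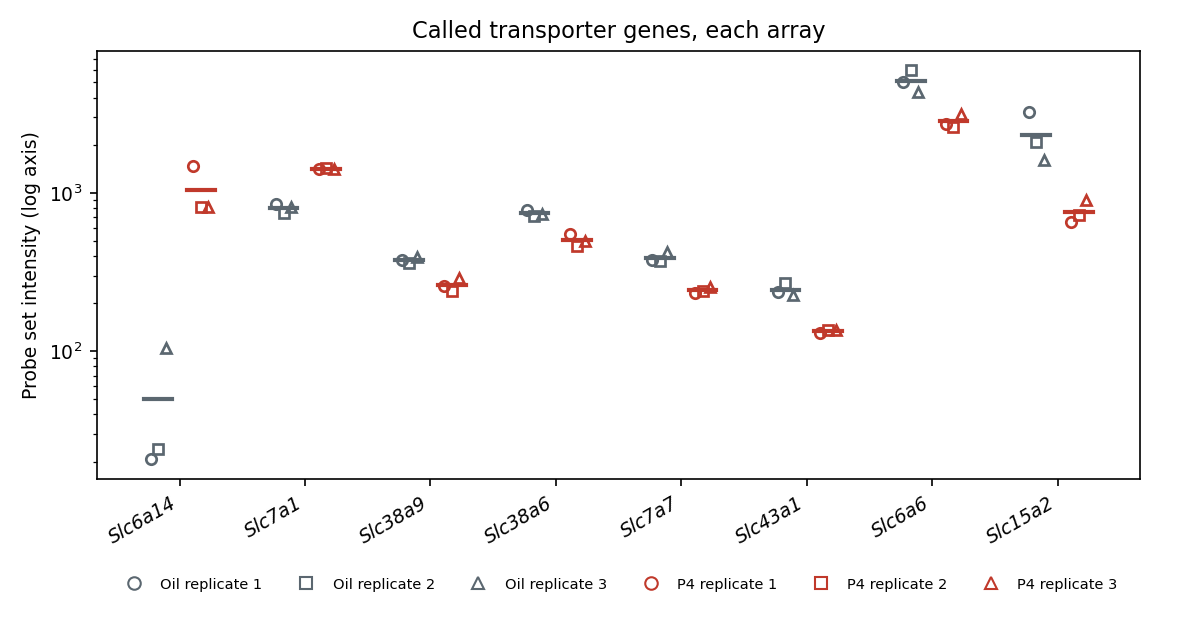
Intensity on each array (log axis) of the 8 called transporter genes, with Oil in grey, P4 in red, symbols for the replicate number and bars at the group mean of 3 arrays. The groups do not overlap for any of the 8, and oil replicate 3 of Slc6a14 lies at 104 beside 20.7 and 24.1.

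In Slc38, the genes that fell were not the carriers of the sodium-coupled system A type. Slc38a6 (1457266_at) had 783, 717 and 740 after oil and 550, 464 and 499 after P4 (-0.55 ± 0.09, limma adjusted p 0.00754). Its other, dim probe set gave 0.07 ± 0.10, and with the mean of both the call was lost (limma adjusted p 0.0864). For Slc38a9 (1456338_at) the oil arrays gave 379, 359 and 394 and the P4 arrays 258, 239 and 288. Both genes were lower on every P4 array than on any oil array. The Slc38a9 difference was -0.50 ± 0.09 (limma adjusted p 0.0125), and all 6 of its other probe sets were lower by sign, from -0.43 to -0.02, with 1 of them called. Without oil replicate 1 Slc38a9 missed the threshold (limma adjusted p 0.0542).

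The system A carriers Slc38a1 and Slc38a2, which load cells with alanine and glutamine, had nearly equal means in both groups on the probe sets used. Slc38a1 had 1263 ± 69 and 1259 ± 150, with a 95% interval of the log2 difference from -0.24 to 0.22. Slc38a2, which cells raise on amino acid shortage, had 2855 ± 304 and 3079 ± 278, with an interval from -0.13 to 0.35. The other probe sets of Slc38a2 differed in sign (-0.24 ± 0.13 and 0.25 ± 0.09), and that of Slc38a1 gave 0.13 ± 0.17, all without a call. Slc38a4 and the glutamine carriers Slc38a3 and Slc38a5 were among the dimmest 30% of genes, with differences from -0.04 to -0.01. Slc38a7, a lysosomal glutamine carrier, had -0.08 ± 0.09. Slc38a10 had 916 ± 46.7 and 765 ± 75.1 without overlap between groups, but was not called (-0.26 ± 0.09, limma adjusted p 0.119).

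**Figure D3:**
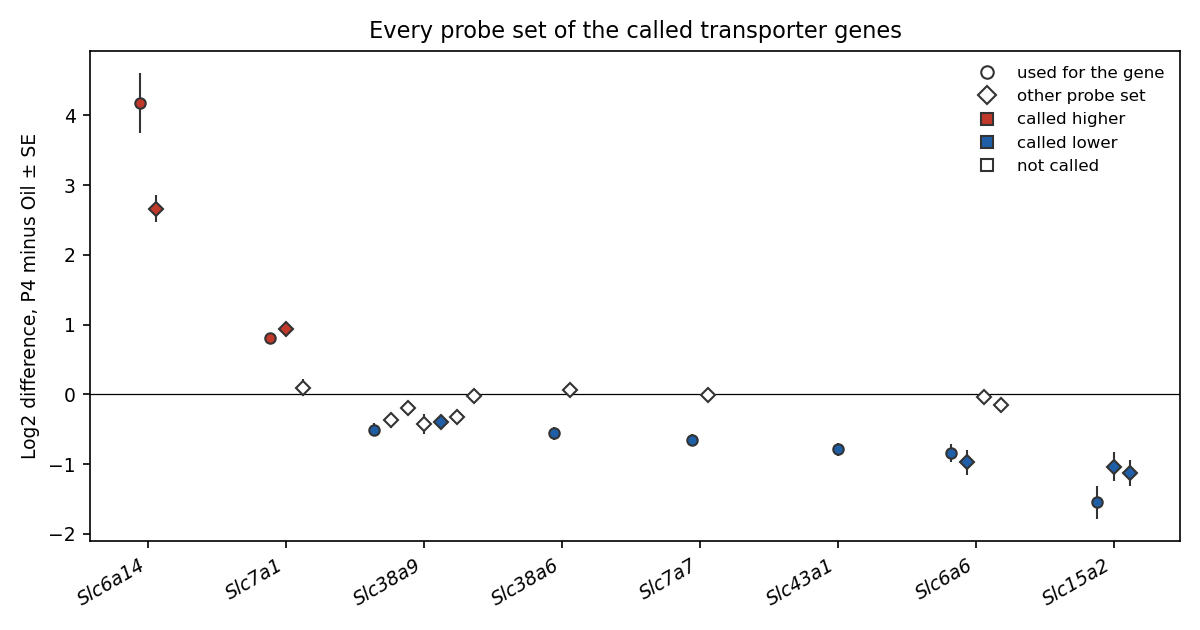
Log2 difference (P4 minus Oil, ± SE) of every probe set of the 8 called genes, with circles for the probe set used, diamonds for the others and filled symbols for those called in a fit over all probe sets. Of the 16 other probe sets, 15 share the sign of the gene and 6 are called the same way.

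Of the 63 probe sets of members that were not used for a gene, 16 belonged to called genes, and 6 of these were called the same way and 0 the opposite way. Among all probe sets 5.08% were called higher and 5.04% lower, 10.1% in all. Another 3 called probe sets belonged to genes that were not called: Slc1a3 (-0.46 ± 0.11), Slc1a4 (0.58 ± 0.15) and Slc7a6 (0.49 ± 0.11). Each had the sign of the probe set used for its gene. The remaining probe sets of Slc1a3 gave from -0.22 to 0.06, and that of Slc1a4 gave 0.06 ± 0.10, all without a call. With the mean of all probe sets of a gene, Slc1a3 had -0.18 (limma adjusted p 0.191) and Slc1a4 had 0.45 (0.0748). On the same measure Slc7a6 had 0.45 (0.023).

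The heavy chains that escort the light chains to the membrane did not change past the threshold. Slc3a2, the partner of most Slc7 light chains, had 1151, 1367 and 1494 after oil and 1162, 1323 and 1323 after P4. The groups overlapped, and the log2 difference was -0.07 ± 0.11, with an interval from -0.32 to 0.19. Slc3a1, the heavy chain of the kidney cystine carrier, and its light chain Slc7a9 were both among the dimmest 30% of genes (0.02 ± 0.12 and -0.12 ± 0.09).

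The light chains differed in sign. Slc7a5, the exchanger of large neutral amino acids, had 410, 421 and 500 after oil and 486, 707 and 651 after P4. Slc7a6, a close relative of Slc7a7 with the same kind of exchange, had 255, 217 and 260 against 348, 290 and 348. The groups overlapped for Slc7a5 and not for Slc7a6. Neither was called, at 0.44 ± 0.15 (limma adjusted p 0.0933) and 0.40 ± 0.11 (0.0502), and both were called with the replicate block (0.0231 and 0.00956). Slc7a6 lay just outside the threshold, and passed it in 11 of 20 other fits, while its adjusted p over those fits ran up to 0.175 (without oil replicate 2).

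Slc7a8, which also carries neutral amino acids, had 554 ± 98.2 and 432 ± 103 (-0.36 ± 0.20, limma adjusted p 0.304). The cystine and glutamate exchanger Slc7a11, which feeds glutathione synthesis, had 198, 185 and 197 after oil and 125, 97.4 and 200 after P4. P4 replicate 3 lay at the level of the oil arrays while the others were lower. That difference of -0.47 ± 0.21 was not called (limma adjusted p 0.207), and without P4 replicate 3 it was -0.73 (0.0159). Of 19 other fits, only that 1 called Slc7a11. The other probe set of the gene gave -0.10 ± 0.12 (limma adjusted p 0.723). Slc7a10, Slc7a12, Slc7a13, Slc7a14 and Slc7a15 were among the dimmest 30% of genes, with differences from -0.08 to 0.16. Slc7a4, for which no substrate was assigned, had 147 ± 1.42 and 179 ± 17 without overlap (0.25 ± 0.09, limma adjusted p 0.127).

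Among the Slc1 genes, the small neutral amino acid exchangers differed from each other in their values. Slc1a4, which carries alanine, serine and cysteine, had 87.5, 85.8 and 83.8 after oil and 116.5, 217 and 126 after P4. All P4 arrays were above the oil arrays, but P4 replicate 2 was far above the other two (0.69 ± 0.20, limma adjusted p 0.0628, and 0.0214 with the replicate block). Without that array the difference was 0.43 and passed (0.0449). Slc1a4 passed in 6 of 19 other fits, while its adjusted p over those fits ran up to 0.174 (without oil replicate 2). Slc1a5, the exchanger that brings in glutamine, had 468 ± 80.7 and 470 ± 39.6, with an interval from -0.28 to 0.31.

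The glutamate carriers of Slc1 were not called. Slc1a1, found in epithelia and neurons, had 865, 937 and 879 after oil and 751, 515 and 1137 after P4. Epithelial marker sums on the same P4 arrays were 14080, 9886 and 17069, lowest and highest on the same arrays as Slc1a1. On the oil arrays Slc1a1 was highest where that sum was lowest (15240), and the part of epithelium in its values was not tested. Slc1a3, a glutamate carrier known from glia, had 179 ± 29.6 and 129 ± 19.3 (-0.42 ± 0.14, limma adjusted p 0.0998, and 0.014 with the block). Slc1a2 had 125 ± 15.3 and 126 ± 15.8, while Slc1a6 and Slc1a7 were among the dimmest 30% of genes (0.07 ± 0.09 and 0.01 ± 0.13).

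Of the remaining Slc6 genes, Slc6a2, the noradrenaline carrier, came nearest to the threshold. It had 1680, 1059 and 1199 after oil and 1730, 1819 and 2837 after P4. The groups did not overlap, although oil replicate 1 and P4 replicate 1 were close (0.68 ± 0.22, limma adjusted p 0.0885, and 0.0436 with the block). Other probe sets of Slc6a2 gave 0.58 ± 0.22, 0.21 ± 0.15 and 0.04 ± 0.10 without a call. The gene passed in 2 of 20 other fits, and with the mean of its probe sets it had 0.38 (limma adjusted p 0.197). Slc6a16 had 87.3 ± 6.32 and 64.6 ± 11.3 without overlap (-0.36 ± 0.12, limma adjusted p 0.0903, and 0.0313 with the block), and lay among the dimmest 30% of genes. The glycine carrier Slc6a9 had 499 ± 2.6 and 530 ± 145, and the proline carrier Slc6a7 had 246 ± 23.9 and 210 ± 16.6 (-0.21 ± 0.10).

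The neutral amino acid carriers Slc6a15 (-0.19 ± 0.10) and Slc6a17 (-0.06 ± 0.09) were not called. Slc6a18 and Slc6a19, of kidney and gut, the monoamine carriers Slc6a3 and Slc6a4, the glycine carrier Slc6a5, the carriers Slc6a11, Slc6a12 and Slc6a13 of the GABA and betaine class, and Slc6a21 were among the dimmest 30% of genes, with differences from -0.10 to 0.12. In all, 27 of the 63 members were that dim and 0 of them were called, beside 2.38% of all genes that dim.

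The proton-coupled Slc36 carriers were not called. Slc36a2, which is also a known marker of brown fat cells, had 156, 162 and 119 after oil and 112, 107 and 90.9 after P4, without overlap (-0.43 ± 0.13, limma adjusted p 0.0727, and 0.0128 with the block). Adipocyte markers, 0 of 5 called, summed to 1659, 1750 and 967 after oil and to 614, 1010 and 428 after P4. Both were lowest on replicate 3 in each group, and the part of fat tissue in the Slc36a2 values was not tested. Slc36a4 had 580 ± 33.6 and 504 ± 38.3 (-0.20 ± 0.09), the lysosomal Slc36a1 had 167 ± 22.9 and 176 ± 12.3 (0.07 ± 0.11), and Slc36a3 and Slc15a5 were among the dimmest 30% of genes.

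**Figure D4:**
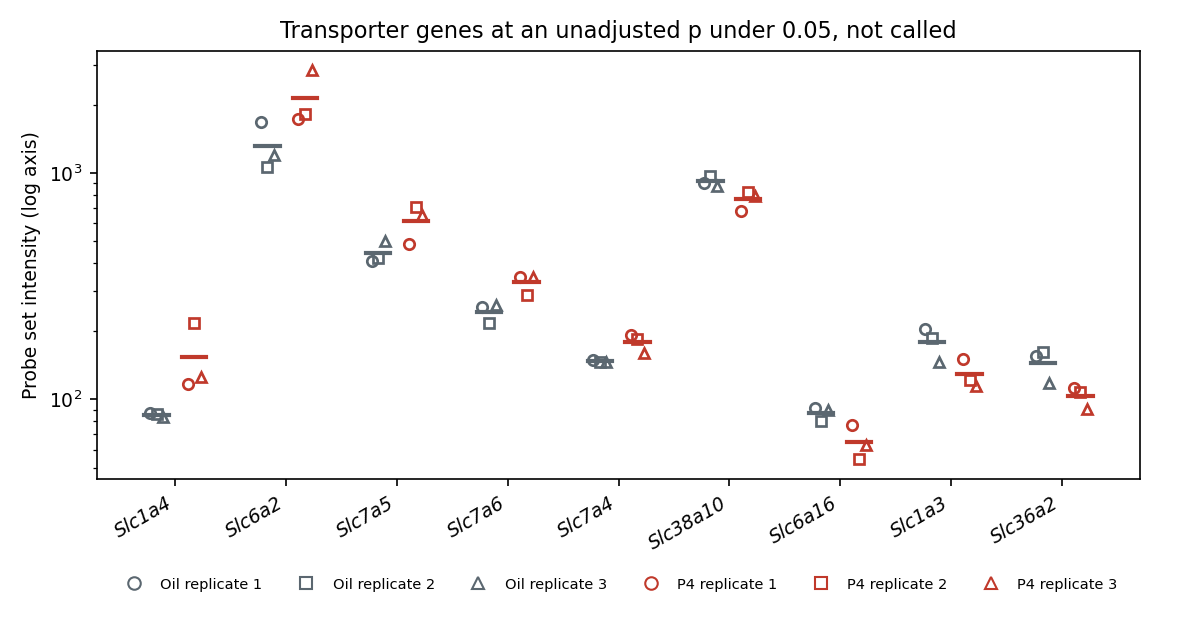
Intensity on each array (log axis) of the 9 transporter genes with an unadjusted limma p under 0.05 that were not called, drawn as in the plot of called genes. The groups overlap for Slc7a5 and Slc1a3, and P4 replicate 2 of Slc1a4 lies at 217 beside 116.5 and 126.

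Genes that work with these carriers were read from lists in the same fit. The lists were chosen with earlier results of these data known, so their counts only describe these arrays. Of 27 measured amino acid response genes other than transporters, 8 rose and 0 fell, beside 6.08% and 6.94% of all genes. Mthfd2, a mitochondrial folate enzyme, rose by 2.67 ± 0.19, Cth, which makes cysteine, by 1.56 ± 0.15, Asns, which makes asparagine, by 1.41 ± 0.11, and Phgdh, the first enzyme of serine synthesis, by 1.20 ± 0.17. The median over the list was 0.15. The transcript of Atf4, a factor known to drive this response, rose from 1172 ± 27.1 to 2025 ± 54 (0.78 ± 0.07, limma adjusted p 0.000761). It is given here although the rule for named genes did not pick it. Of the 19 listed genes not called, Nupr1 (-0.40), Vldlr (-0.24), Ddit3 (-0.23) and Ddit4 (-0.11) were lower by sign. So were Trib3 (-0.10), Chac1 (-0.08), Cbs (-0.05) and Stc2 (-0.04). The others not called, Atf3 (0.39) and Atf5 (0.28) among them, were higher by sign. Groups did not overlap for Vldlr (limma adjusted p 0.0868), nor for Xpot, which was higher by sign (0.23, limma adjusted p 0.173). Among transporters known as targets of Atf4, not listed in full here, Slc7a1 rose. Slc7a5 (0.44), Slc3a2 (-0.07), Slc38a2 (0.11) and Slc7a11 (-0.47) had log2 differences that were not called. The part of Atf4 in any of these values was not tested.

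A list for amino acid sensing and mTORC1 control held 33 measured genes, among them Mtor itself and the S6 kinase gene Rps6kb2. Of these, 3 rose and 6 fell, with a median of -0.05, where 6.08% and 6.94% of all genes were called. Sesn3, a sestrin that restrains mTORC1, fell from 1804 ± 85.1 to 808 ± 55.3 (-1.15 ± 0.08). Deptor, an inhibitor bound to the complex, had -0.94 ± 0.15 and Castor2, of the arginine sensor family, -0.60 ± 0.09. Sec13, shared by the sensing complex and the secretory coat, rose by 0.67 ± 0.07. Limma adjusted p values of these 4 ran from 0.000548 to 0.00725. Of the other sestrins, Sesn1 fell (-0.58 ± 0.10) and Sesn2, counted in the amino acid response list, rose (0.43 ± 0.11). Slc38a9, described above, signals to mTORC1 as well.

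The remaining lists are short, and 13.0% of all genes were called in either direction. Of 18 other amino acid carriers 2 rose, a share near that of all genes, the mitochondrial ornithine carrier Slc25a15 (0.50 ± 0.08) and the mitochondrial glutamate carrier Slc25a22 (0.48 ± 0.09), and 0 fell. The Slc25a15 call was lost with the mean of its probe sets (limma adjusted p 0.152), and that of Slc25a22 without oil replicate 2 (0.0685) or P4 replicate 2 (0.0547). Of 11 partner and trafficking genes Sgk1, a kinase that keeps several carriers at the membrane, rose by 2.57 ± 0.14. In the same list Anpep, a peptidase that frees amino acids from peptides (-0.55 ± 0.13), and the ubiquitin ligase Nedd4 (-0.31 ± 0.07) fell.

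Of 14 glutathione genes 2 rose and 0 fell, again near the 13.0% of all genes called. They were the 2 subunits of the enzyme that joins glutamate and cysteine, Gclm (0.37 ± 0.10) and Gclc (0.30 ± 0.08). Of 4 osmolyte genes 2 fell and 0 rose, Nfat5, the factor that answers to high salt (-0.50 ± 0.07), and Slc5a3, the carrier of the osmolyte inositol (-0.53 ± 0.13). The remaining genes of that list, Hspa4l (-0.24 ± 0.11) and Hspa1b (0.63 ± 0.21), were not called. Slc6a6, the taurine carrier and a known target of Nfat5, fell as well, and a link between the 2 was not tested. Anpep, Nedd4, Gclm, Gclc and Slc5a3 each lost their call on leaving out at least 4 of the single arrays (limma adjusted p up to 0.157), and Nedd4 and Slc5a3 also with scaling to the hybridisation controls (0.158 and 0.0785), a scaling that called 10.6% of all genes higher and 3.43% lower. Leaving out probe sets whose names end in _a_at, _s_at or _x_at ended the Nfat5 call (limma adjusted p 0.0522). That of Slc5a3 was lost with the mean of its probe sets (0.399).

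**Figure D5:**
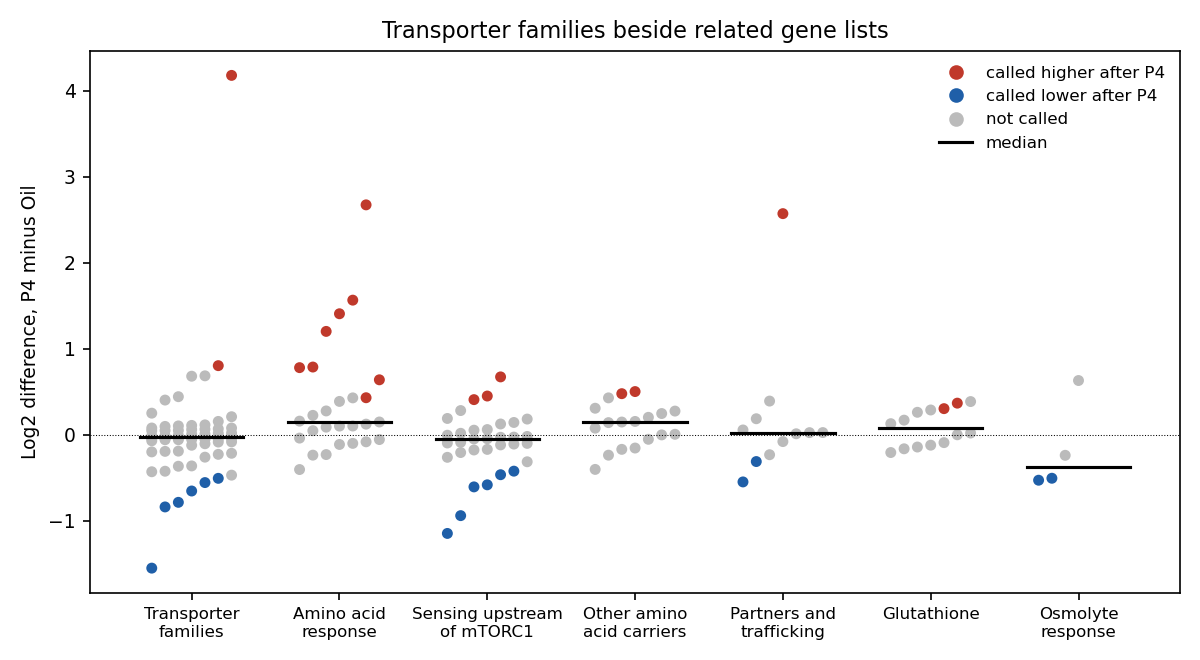
Log2 difference (P4 minus Oil) of each transporter gene and of each measured gene of the related lists, with called genes in colour and a bar at the median. The amino acid response list holds 8 called genes, all higher, against 2 higher and 6 lower among the 63 transporter genes. The lists were chosen with earlier results of these data known.

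Of the 8 called transporters, 7 kept their call with any 1 array left out, the exception being Slc38a9. Leaving out both arrays numbered 2, with 2 arrays left in each group, ended every call but that of Slc7a1 (limma adjusted p from 0.0623 for Slc6a14 to 0.134 for Slc38a9), in a fit that called 0.544% of all genes higher and 0.396% lower.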

How the data were processed

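Gene expression was measured on 6 expression arrays hybridised with biotinylated cRNA that was prepared from total RNA, per the labels' protocols. The authors deposited linear intensity values for 45101 probe sets, 64 of them controls, and how these were summarised, background-corrected or scaled is not given in any source available for this work. Array medians differed by 0.059 log2, so no further normalization was applied. The number of arrays limits the precision. Array pairs correlated at 0.972 to 0.992, and at most 18 probe sets of a pair had exactly the same deposited value.

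Gene names came from the platform annotation. Of the probe sets, 34945 had 1 symbol, 932 had several and 9160 are unnamed here. A RefSeq gene table (GRCm38.p6) matched all 126 member probe sets by gene ID and changed 0 symbols. Values were turned into log2(intensity + 16), and a fold change on that scale understates changes of dim genes. The P4-Oil contrast was fitted with lmFit and trended eBayes (limma 3.58.1, R 4.3.3) on all 6 arrays without covariates, two-sided, with Benjamini-Hochberg adjustment over 18193 genes and a threshold of 0.05. The test was tested on simulated data. Means are given ± SD of 3 arrays, differences ± SE, and figures were drawn with matplotlib 3.10.9.

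Named genes are all 63 members and, from each related list, up to 4 called genes by size. Atf4 and some further list genes are given beside them. The members, lists and promoter motifs were chosen with earlier results of these data known. Replicate numbers are shared by the groups. Same-numbered arrays deviated together from their group means (correlations 0.526, 0.126 and 0.643), each over 0.1, the limit used to take the numbers as pairing the arrays. Of the pairs with unlike numbers, oil replicate 2 with P4 replicate 1 reached 0.287 and the others were below 0, so for number 2 the pairing is weak. The basis is these correlations, as the labels share only the number. Values are from the fit without the block, and those with the replicate number as a block stand beside them where the call changes. Alternatives were other pseudocounts (1 and 50), quantile normalization, median centring, scaling to 18 hybridisation control probe sets, other choices of probe set, dropping the dimmest 30% or 50% of genes, other moderation, array weights, the replicate block, a threshold of 0.01 and leaving out arrays. A fit over all probe sets was added after seeing the data.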

Additional observations from a re-analysis of the deposited data

How the results depend on the processing

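The count of transporters called higher (2) was 6 with scaling to the hybridisation controls and 6 with the replicate block. It was 4 without probe sets whose names end in _a_at, _s_at or _x_at, 4 with array weights and 1 without both arrays numbered 2. With single arrays left out it ran from 2 to 4. The count called lower (6) was 9 with the replicate block, 0 without both arrays numbered 2, and from 5 to 8 with single arrays left out. Under every other alternative the counts were 2 or 3 higher and 5 to 7 lower, and no called difference changed sign in any fit. All 8 called genes kept their call with the replicate block, and the block added Slc1a3, Slc1a4, Slc6a2, Slc6a16, Slc7a5, Slc7a6 and Slc36a2. Without both arrays numbered 2 only 2 arrays a group remain, so fewer samples enter the test. Hybridisation controls were 0.127 log2 lower on the P4 arrays, and scaling to them moved the median difference of all genes from -0.01 to 0.12, which calls 10.6% of genes higher and 3.43% lower. That scaling added Slc1a4, Slc6a2, Slc7a4 and Slc7a6 as higher, with 6 still lower. The probe sets of Slc7a7 all end in _a_at or _s_at and were left out by that choice of probe sets. Slc43a1 was left out with the dimmest 50% of genes. Other lost calls were those of Slc38a6 with the mean of its probe sets and Slc38a9 without oil replicate 1 or at a threshold of 0.01 (adjusted p 0.0125). For the genes among the dimmest 30%, low signal over an unknown background limits what could be called.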
